A study of Mus musculus with 15 samples.

Results

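The positions retrieved with *116HG* oligos from WT brain were set against those retrieved with the same oligos from *Snord116del* brain. The members are every entry of the 3 deposited peak lists made with these oligos, 78033 peaks from WT replicate 1, 11145 from WT replicate 2 and 1280 from *Snord116del*, which together are 90458 of the 97524 peaks (92.8%) of the 5 lists of the series. No peak was chosen by its value. The other 2 lists came from non-specific control (NSC) oligos, 3648 peaks from WT and 3418 from *Snord116del* brain, and are used only to show where the *116HG* lists stand. WT mice were C57BL/6J. *Snord116del* mice, B6(Cg)-Snord116tm1.1Uta/J, carried the deletion on the chromosome inherited from the father (+/-) and kept the maternal *Snord116* DNA. The DNA of the locus was thus present in both genotypes, but in *Snord116del* the *Snord116* cluster came from the maternal chromosome alone. The RNA made from the paternal copy was lost. Each library came from a single hemisphere of an adult brain, and all were called against an input library of WT brain. No time of day is recorded for any of these libraries, so whether it differed between the groups is not known. The study's introduction places the association of *116HG* with its genes in the light phase, without a time for each library. No other treatment is recorded for them. The RNA levels used further on came from cortex of WT and *Snord116del* mice. Each genotype was sampled at 6 h after lights on and at a later time in the dark phase. With 2 WT libraries and 1 *Snord116del* library, an exact one-sided permutation test over libraries cannot give a p below 0.333, so every difference here is a description of these libraries, and the intervals, exact (Clopper-Pearson) at 95%, cover counting error only and treat peaks as independent.

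ChIRP (chromatin isolation by RNA purification) retrieves an RNA from cross-linked chromatin with biotinylated oligos complementary to it, and the DNA that comes along is sequenced. *116HG* is the spliced host RNA of the *Snord116* small nucleolar RNAs, which are repeated in tandem in the imprinted Prader-Willi region and are transcribed from the paternal chromosome in neurons as part of a long transcript that starts at *Snrpn*. An oligo control from brain that lacks the RNA shows which positions the oligos, the beads and the sequencing recover without it.

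Examples of 3 kinds of peak that the lists shared unequally are shown in mm9, on the plus strand. They are kinds that can be seen in the sequence itself, and most replicate 1 peaks, which lay in exons, are of none of them. The first is the *Snord116del* peak chrX:41033193-41033471, whose fold over input of 57.6 was the second highest of that list and the highest of a peak with the list's most frequent 20-base word. Capitals mark that word and another of the list's frequent words, each as written below or as its complement:

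*Snord116del* peak: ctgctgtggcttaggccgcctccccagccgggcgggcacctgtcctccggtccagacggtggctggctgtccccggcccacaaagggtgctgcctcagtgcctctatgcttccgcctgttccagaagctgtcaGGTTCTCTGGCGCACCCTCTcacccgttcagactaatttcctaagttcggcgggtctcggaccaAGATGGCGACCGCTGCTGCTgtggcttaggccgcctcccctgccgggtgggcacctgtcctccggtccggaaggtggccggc

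The second is the WT replicate 1 peak chr7:67047440-67047605, which had the highest fold (233) of those in the *Snord116* array that a replicate 2 peak overlapped and that held, on either strand, the commonest word of the array's peaks. The peak chosen in the same way in the neighbouring *Snord115* array, chr7:66845021-66845188 with a fold of 174, is shown beside it because the oligos were not made for that RNA. Capitals mark the commonest word of each array:

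*Snord116* array: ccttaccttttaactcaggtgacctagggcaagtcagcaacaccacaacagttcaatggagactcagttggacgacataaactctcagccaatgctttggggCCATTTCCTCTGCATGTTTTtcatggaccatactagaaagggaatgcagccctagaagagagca
*Snord115* array: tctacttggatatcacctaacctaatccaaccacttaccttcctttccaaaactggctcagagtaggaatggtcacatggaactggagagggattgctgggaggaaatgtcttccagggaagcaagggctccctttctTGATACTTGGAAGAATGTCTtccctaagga

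The third is the WT replicate 1 peak chr1:8343726-8343829, outside genes and 7.78 kb from *Sntg1*, which shared the second rank by fold (441) among the peaks that overlapped replicate 2 and had no *Snord116del* peak within 10 kb. It is shown, without capitals, for its run of T, the complement of a run of A:

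WT peak: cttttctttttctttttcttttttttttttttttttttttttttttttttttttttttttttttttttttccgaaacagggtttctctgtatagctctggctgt

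The lists differed first in size and height. The deposited fold over input had a median of 55.3 in WT replicate 1 (range 20.0 to 687) and of 22.4 in *Snord116del* (20.0 to 59.9), and the replicate 2 list gives positions without a fold. In replicate 1, 37910 peaks (48.6%) had a fold above the highest of the *Snord116del* list, while 34 *Snord116del* peaks (2.66%) reached a fold of 40 against 64610 (82.8%) in replicate 1. The deposited fold is scaled within each library, so folds of different lists, here and below, are not on a common scale. *Snord116del* peaks were the widest, with a median of 362 bp against 157 bp and 101 bp in WT replicates 1 and 2, and covered 509 kb in all against 17218 kb and 1241 kb. The lists were called in each library by itself. By the study's read counts, the *Snord116del* library had more aligned reads than either WT library, and a larger share of its reads aligned. The part of these differences in the lists was not tested.

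GC content separated all 3 lists. In the middle 100 bases of a peak, the median GC was 63.0% in *Snord116del*, 48.0% in WT replicate 1 and 36.0% in WT replicate 2, against 42.0% in windows taken every 1 kb along the genome. In *Snord116del*, 92.4% of the peaks had a GC of at least 50%, in replicate 1 45.8% and in replicate 2 13.2%. The WT replicates thus lay on opposite sides of the genome median. The *Snord116del* list resembled the *Snord116del* list made with NSC oligos, whose median was also 63.0%, and not the WT NSC list, at 39.0%.

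**Figure D1:**
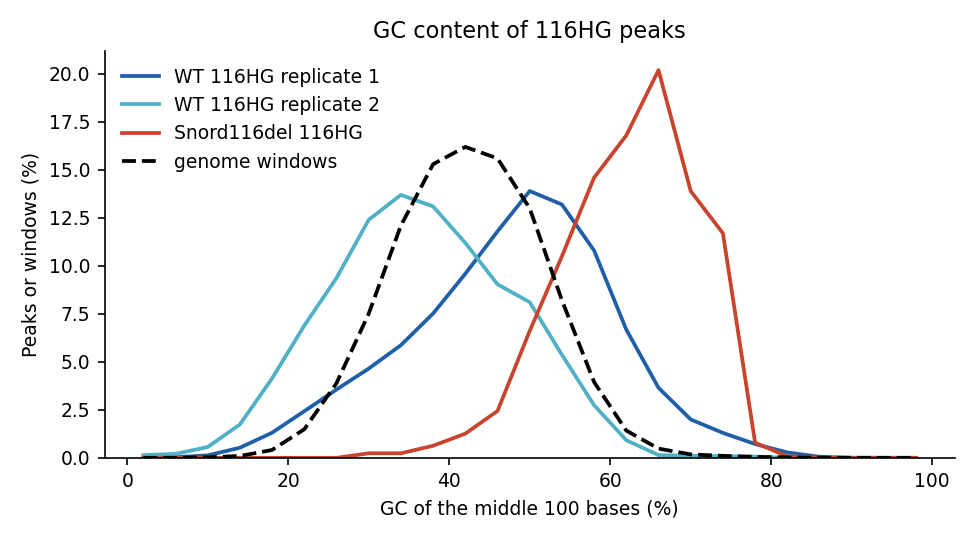
GC content of the middle 100 bases (x axis, %, bins of 4 points) against the percent of peaks in each bin (y axis) for the 3 *116HG* lists, with genome windows dashed. The medians are 36.0% in WT replicate 2, 48.0% in WT replicate 1 and 63.0% in *Snord116del*, against 42.0% in the genome.

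Repeated DNA made up most of the *Snord116del* list. For 71.9% of the *Snord116del* peaks (69.4 to 74.4) the middle 32 bases had further exact copies elsewhere in the genome, and 44.5% had at least 100 copies. The shares with further copies were 18.0% in WT replicate 1 and 71.0% in replicate 2. The word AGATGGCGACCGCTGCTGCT or its complement lay in 448 of the 1271 *Snord116del* peaks on placed chromosomes (35.2%, 32.6 to 37.9), on 20 of the 21 chromosomes. It lay in 0 of 77619 peaks of WT replicate 1, so that the share could be 0.00387% at most if a count of 3 is the limit, and in 5 of 10664 of replicate 2 (0.0469%). Of genome windows as wide as the median *Snord116del* peak, 0.0767% held it. Words were picked from the *Snord116del* list in turn, each to cover most of the peaks still left. Any of the first 5, which are not simple CA repeats, lay in 750 of its peaks (59.0%, 56.2 to 61.7). This choice favours the share in that list. Taken singly, these words lay in 0.0228% to 0.0767% of the same genome windows. These words were in 0 peaks of WT replicate 1 and in 13 of replicate 2 (0.122%).

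The most frequent word came from a tandem array. Where a *Snord116del* peak held more than 1 copy, as 143 did, the copies lay a median of 212 bases apart, and the 7733 copies in the genome had the same median spacing. In the direction against the word as written, 1994 of 3052 arrays in the genome (65.3%) were followed within 7 kb by an open reading frame of at least 1000 codons, and in the other direction 20 (0.655%). Of the array ends that lay in a *Snord116del* peak, 169 of 239 (70.7%) were followed by such a frame. Tandem promoter units ahead of a long open frame are the known layout of mouse LINE-1 elements, retrotransposons that copy themselves through RNA, and the name is used here on these grounds, since no annotation of repeats was used. Spacing and frames were examined for the most frequent word alone. For the others of the 5 words, LINE-1 type is only a label and was not tested. None of the 448 peaks had its middle in an annotated exon, 125 lay in introns and 323 (72.1%) outside genes.

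Most *Snord116del* peaks of the highest fold were of the same kind. Of the 10 highest, with folds of 48.0 to 59.9, 7 held the most frequent word, 9 lay outside genes and 1 in an intron of *9530036O11Rik*. None overlapped a WT replicate 1 peak, 3 overlapped a replicate 2 peak, and 9 overlapped a peak of the *Snord116del* NSC list, where the fold ranged from 36.8 to 64.8. The highest of all lay on chromosome 18, 7.42 kb from *Osbpl1a*, and did not hold the word. The peaks at chr17:19240748-19241007 and chr7:10870351-10870544 tied at a fold of 52.8, the first 22.6 kb from the vomeronasal receptor gene *Vmn2r98* and the second 9.75 kb from *Vmn1r66*. The second was the only one of the 10 that the NSC oligos did not recover, and its middle 32 bases occur 26461 times in the genome. Next came chr16:96004302-96004573, 61.8 kb from *Ets2*, the intronic peak chr5:28920101-28920479 and chr9:52557798-52558182, each at 51.2. The others were chr7:92908752-92909048 (50.1), chr4:53405511-53405817 (49.6) and chr10:66045343-66045647 (48.0).

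**Figure D2:**
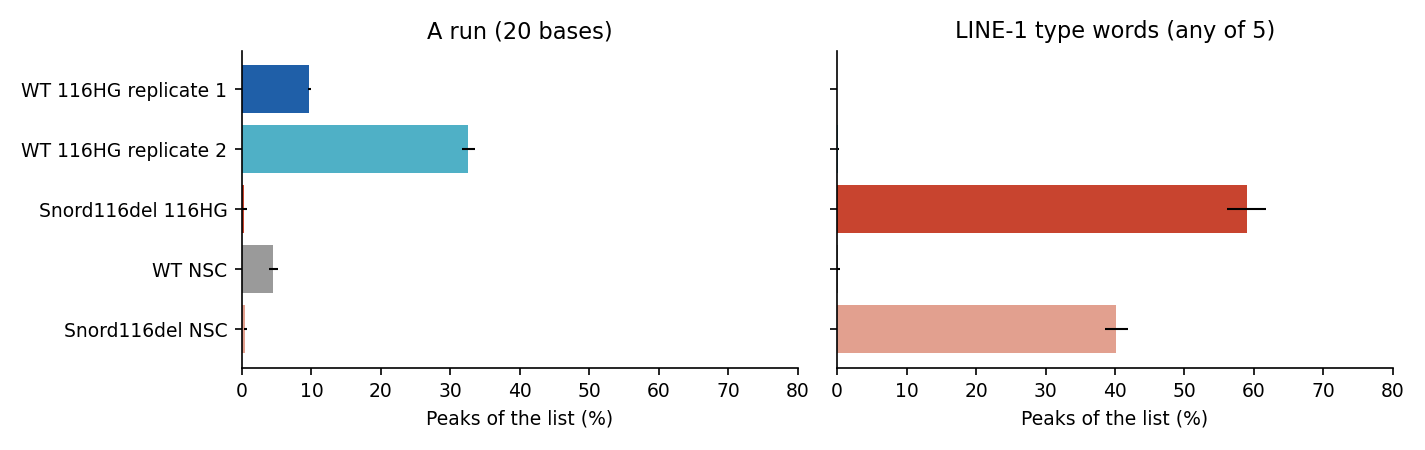
Percent of the placed peaks of each of the 5 lists (x axis) that hold a run of 20 A or T (left) or any of 5 words labelled LINE-1 type (right), with bars for exact 95% intervals. The label rests on the most frequent of these words. The A run is found in 32.6% of WT *116HG* replicate 2 and 0.236% of *Snord116del* *116HG*, and the LINE-1 type words in 59.0% of *Snord116del* *116HG* and in 0 peaks of WT *116HG* replicate 1.

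The 521 *Snord116del* peaks without these 5 words were also GC-rich, with a median of 60.0%, but lay elsewhere. Of them 158 (30.3%, 26.4 to 34.5) had their middle in an exon and 102 (19.6%, 16.3 to 23.2) within 1 kb of the start of a protein-coding gene, against 1.65% of genome bases. Of the 750 peaks with the words, 1 lay that near a start and 0 in an exon. The 2 parts of the list differed in how far the NSC oligos recovered them too: 476 of the 750 (63.5%) and 176 of the 521 (33.8%) overlapped a *Snord116del* NSC peak.

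Positions of the *Snord116del* list recurred with the other oligos more than with the other genotype. Of its 1280 peaks, 659 (51.5%, 48.7 to 54.3) overlapped a *Snord116del* NSC peak directly, 87 (6.80%, 5.48 to 8.32) a WT replicate 1 *116HG* peak and 44 (3.44%, 2.51 to 4.59) a replicate 2 peak. A peak of this width placed at any known base of the genome would overlap those lists at 0.104%, 1.59% and 0.193% of positions. In all, 1166 *Snord116del* peaks (91.1%, 89.4 to 92.6) overlapped neither WT *116HG* list. With a gap of up to 10 kb, 423 (33.0%, 30.5 to 35.7) were near replicate 1, against 23.5% of genome positions, and 210 (16.4%, 14.4 to 18.6) near replicate 2, against 7.32%. At 50 kb the shares were 63.0% and 37.3%, and the genome's 58.5% and 29.6%, so that the ratio to the genome fell from 4.29 at overlap to 1.08 for replicate 1 and from 17.8 to 1.26 for replicate 2.

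**Figure D3:**
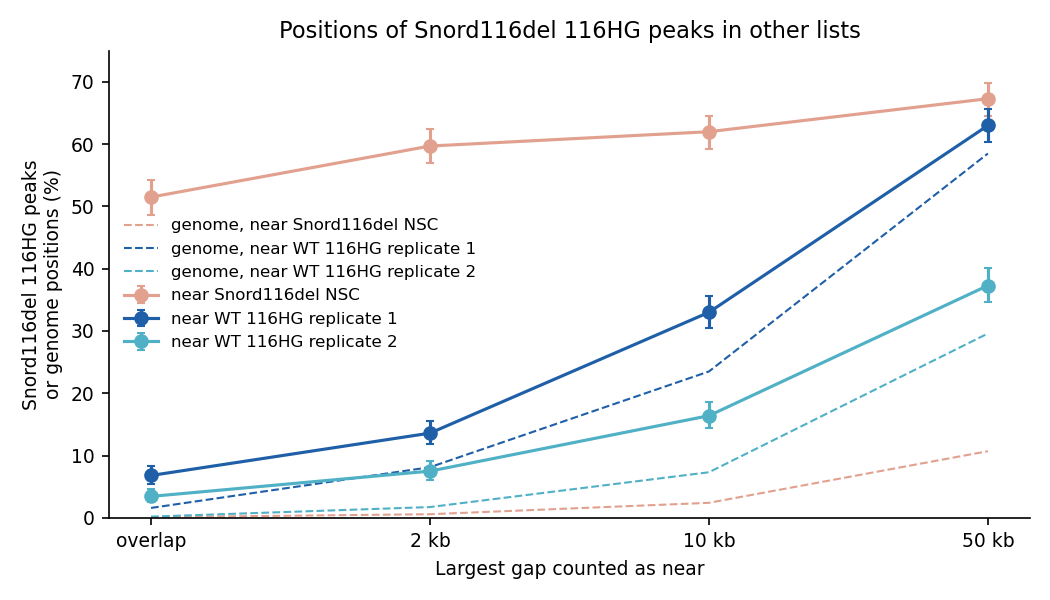
Percent of *Snord116del* *116HG* peaks (y axis, points with exact 95% intervals) that lie near a peak of 3 other lists, by the largest gap counted as near (x axis), with the percent of genome positions that lie as near shown dashed. Direct overlap is 51.5% with *Snord116del* NSC, 6.80% with WT *116HG* replicate 1 and 3.44% with replicate 2.

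Seen from the WT side the shared part was small. Of the replicate 1 peaks, 107 (0.137%, 0.112 to 0.166) overlapped a *Snord116del* peak and 1060 (1.36%, 1.28 to 1.44) lay within 10 kb of one, against 0.929% of genome positions. Of replicate 2, 44 (0.395%) overlapped one and 210 (1.88%, 1.64 to 2.15) lay within 10 kb, against 0.927%. Among the 1915 replicate 1 peaks that overlapped a replicate 2 peak, 1854 (96.8%) had no *Snord116del* peak within 10 kb. Where a *Snord116del* and a replicate 1 peak overlapped, the fold was higher in replicate 1 in 107 of 108 pairs, with a median of 71.8 against 22.1 and a median ratio of 3.42. The lists differ in this way as a whole, since 99.3% of all replicate 1 peaks had a fold above the *Snord116del* median. The fold is also scaled within each library. Among these pairs, low folds rose as 30.78, 41.04 and 51.3 in replicate 1. In *Snord116del* they rose as 20.81, 22.41 and 24.01. The ratio is therefore not on a common scale and does not compare the amounts recovered. Spearman's rho between the folds was 0.18 over these pairs, which share positions and the WT input.

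The places of the *Snord116del* peaks that overlapped a WT list are given beside that list's own share in exons, 72.0% for replicate 1 and 2.37% for replicate 2. Of the 70 *Snord116del* peaks that overlapped replicate 1 alone, 44 (62.9%, 50.5 to 74.1) lay in exons and 20 (28.6%) within 1 kb of a start, and 19 were also in the *Snord116del* NSC list. Of the 27 that overlapped replicate 2 alone, 3 (11.1%, 2.35 to 29.2) lay in exons, 0 near a start, and 18 were in the NSC list. The median fold in *Snord116del* was 20.8 for the former and 25.6 for the latter.

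Only 17 *Snord116del* peaks overlapped both WT *116HG* lists, and ribosomal RNA sequence was the commonest thing among them. By their sequence, 7 were recognised as copies of parts of 28S ribosomal RNA, the large RNA of the ribosome, with no rRNA reference to compare them with, and 3 more matched one of these over at least 50 bases at 88.9% to 96.1% identity. Over the whole lists, rRNA matches lay in 12 of 1271 placed *Snord116del* peaks (0.944%, 0.489 to 1.64). They lay in 61 of 77619 peaks of replicate 1 (0.0786%) and 32 of 10664 of replicate 2 (0.300%). In the *Snord116del* NSC list they lay in 13 of 3395 (0.383%). All 10 of the shared peaks with this sequence lay away from annotated exons, 5 in introns and 5 outside genes. Their fold was 21.4 to 46.4 in *Snord116del* and 67.1 to 677 in WT replicate 1, and 8 of them overlapped a *Snord116del* NSC peak. The bases that the *Snord116del* and replicate 1 peaks had in common at the highest of them, chr2:73705934-73706070 in an intron of *Atf2*, a transcription factor gene on chromosome 2, are printed on the plus strand because they show the rRNA sequence:

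*Atf2* intron: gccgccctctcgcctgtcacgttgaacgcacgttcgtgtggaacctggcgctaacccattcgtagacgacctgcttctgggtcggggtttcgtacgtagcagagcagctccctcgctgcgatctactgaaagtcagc

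The next were at chr3:61962970-61963267, 179 kb from *Arhgef26*, with folds of 44.3 in *Snord116del* and 169 in replicate 1, and, as a match of 63 bases, at chrX:84483589-84483766 in an intron of *Il1rapl1* (41.7 and 163). Introns of *Rsph3a*, *Kcnip1* and *Itga9* held further copies, with replicate 1 folds of 243, 354 and 67.1. Of the 7 places without this sequence, the highest in *Snord116del* was chr17:23013303-23013598, 9.35 kb from *Zfp945* (35.2 and 72.1), and the place in an intron of *Cd163l1* was the only one of the 17 where replicate 1 was the lower, at 29.8 against 30.9. Of the 17, 14 overlapped a *Snord116del* NSC peak and 5 a WT NSC peak.

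The Prader-Willi window on chromosome 7, from the start of *Ube3a* to the end of *Snrpn* (chr7:66484122-67285105, mm9), is where the target RNA is made. It held 361 peaks of WT replicate 1 (0.463% of the list), 288 of replicate 2 (2.58%) and 1 of *Snord116del* (0.0781%, 0.00198 to 0.435), while 0.0313% of the genome lies in it. Peaks closer than 10 kb were also merged. The window then held 11 of 26101 regions of replicate 1 (0.0421%), 8 of 9263 of replicate 2 (0.0864%) and 1 of 1160 of *Snord116del* (0.0862%). This gap joins neighbouring copies of the arrays, whose median spacing is 1871 bp in *Snord115* and 2530.5 bp in *Snord116*. With 1 *Snord116del* region, the merged shares cannot rank the lists. In the *Snord116* array itself, *Snord116del* had 0 of 1280 peaks, so that its share could be 0.234% at most by the same limit, replicate 1 had 30 (0.0384%) and replicate 2 had 61 (0.547%). A share like that of replicate 1 was therefore not detectable in a list as short as that of *Snord116del*. *Snord116del* brain also has only the maternal DNA of this array, while the fold was taken over WT input. The part of this lower dose was not tested. The library of WT brain with NSC oligos had 8 peaks in the array, or 0.219% of its list, a larger share than the 0.0384% of replicate 1. Their folds were 20.3 to 27.6, against a median fold of 55.2 and a highest of 233 for the replicate 1 peaks.

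The 1 *Snord116del* peak in the window, at chr7:66649579-66649848 between annotated *Snord115* copies, had a fold of 22.4. It overlapped no peak of the WT *116HG* lists or of the *Snord116del* NSC list, the nearest of replicate 1 being 0.378 kb and of replicate 2 6.03 kb away. Its middle 32 bases occur 9 times in the genome. The peak did not hold the most frequent word, the only one whose spacing and frames were examined. It is shown because it holds another of the 5 words labelled LINE-1 type, in capitals:

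*Snord115* segment, *Snord116del*: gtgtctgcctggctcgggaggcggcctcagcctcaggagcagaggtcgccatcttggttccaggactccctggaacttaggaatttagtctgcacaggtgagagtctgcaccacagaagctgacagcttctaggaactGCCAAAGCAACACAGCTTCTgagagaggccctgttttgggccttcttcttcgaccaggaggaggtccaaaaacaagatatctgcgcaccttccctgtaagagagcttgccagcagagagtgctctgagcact

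In WT replicate 1 the peaks of the *Snord116* array gathered at a common place of the repeat unit. The array has 27 annotated *Snord116* copies on the minus strand with a median spacing of 2530.5 bp, and 23 of the 30 replicate 1 peaks had their middle 100 to 600 bases upstream of the nearest copy (median 377 bases upstream, quartiles 428 and 246), while 2 overlapped a copy. Of the array's bases, 9.36% lie at that distance upstream. The peaks were nearest to 24 of the 27 copies. The word in capitals in the *Snord116* array peak printed above occurs 24 times in the genome, each time in this array, and lay in 22 of the 30 replicate 1 peaks and 10 of the 61 of replicate 2. The annotation names the snoRNA copies and no exons of the host RNA between them, so these peaks count as outside genes. The replicate 2 peaks were more spread along the unit, 17 of 61 (27.9%, 17.1 to 40.8) lying 100 to 600 bases upstream and 11 overlapping a copy.

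The *Snord115* array, whose 137 copies belong to the same transcript and are not deleted in *Snord116del*, held 239 peaks of replicate 1 and 218 of replicate 2. In replicate 1 they formed a pair of clusters, 129 (54.0%, 47.4 to 60.4) at 100 to 600 bases upstream of the nearest copy, with a median of 162 bases, and 91 (38.1%, 31.9 to 44.6) at 100 to 600 bases downstream, with a median of 304. In replicate 2 the same stretches held 57 (26.1%, 20.4 to 32.5) and 55 (25.2%, 19.6 to 31.5), close to the 24.4% of the array's bases that lie in each. The word in capitals in the *Snord115* array peak occurs 118 times in the genome, all in the array, and lay in 107 peaks of replicate 1, 14 of replicate 2 and 0 of *Snord116del*. Of the replicate 1 peaks in the *Snord115* and *Snord116* arrays, 66 (27.6%) and 10 (33.3%) overlapped a replicate 2 peak. *Snrpn*, which codes for a splicing protein, had 17 replicate 1 peaks with a median fold of 154, and *Ube3a*, a ubiquitin ligase gene, had 45 with a median of 41.0. Replicate 2 had 1 and 0 peaks there, and *Snord116del* 0 and 0. Within the window, 249 of the 361 peaks of replicate 1 and 271 of the 288 of replicate 2 had middle 32 bases with more than 1 genome copy, and how far whole reads can be told apart there was not tested.

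**Figure D4:**
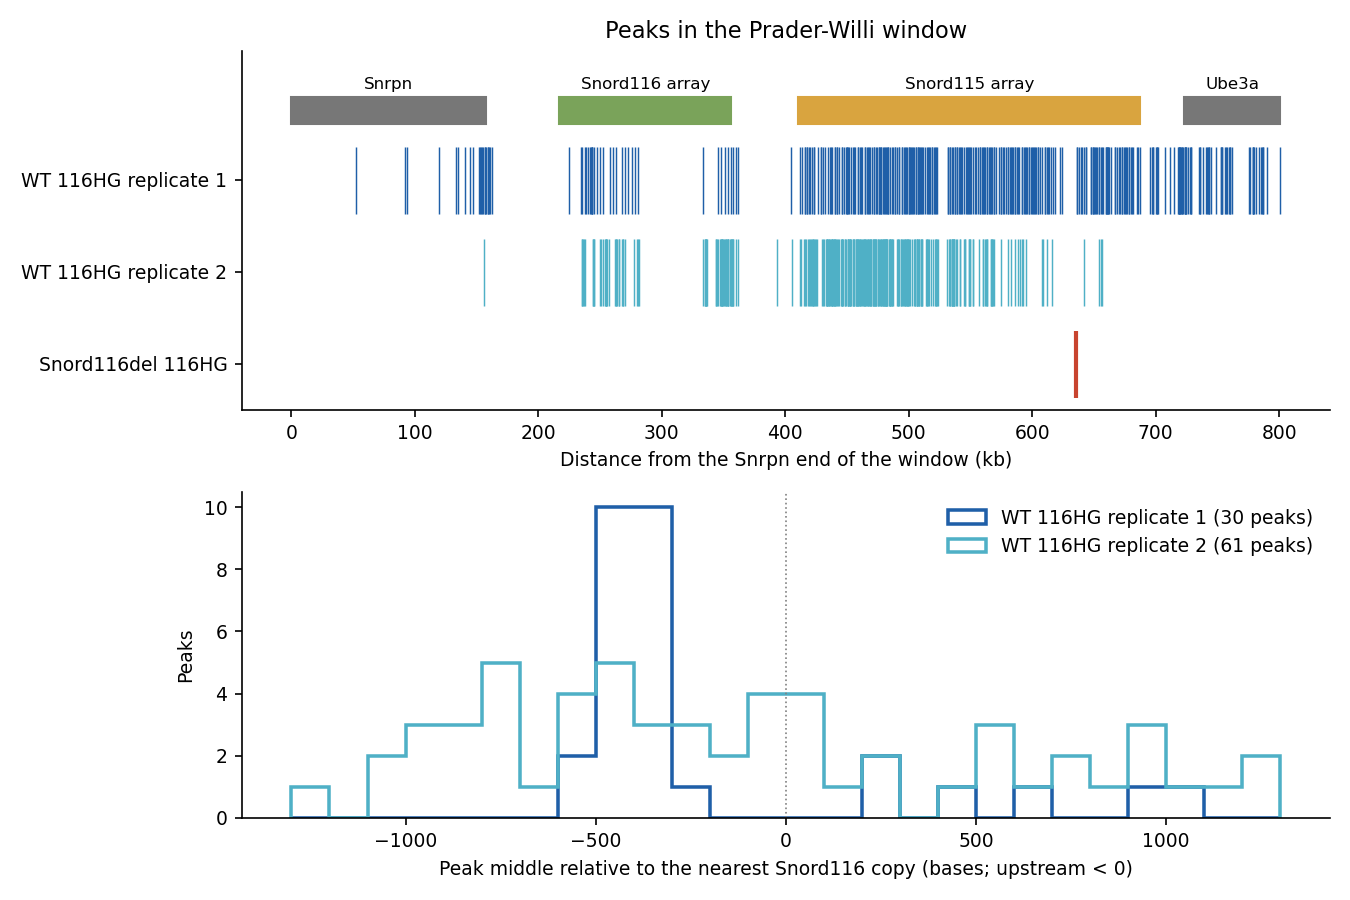
Top, every peak in the Prader-Willi window (vertical lines) of WT *116HG* replicate 1 (361), WT replicate 2 (288) and *Snord116del* *116HG* (1) by distance from the *Snrpn* end in kb, with genes and snoRNA arrays as boxes. Bottom, number of peaks by the distance in bases of their middle from the nearest *Snord116* copy (upstream below 0), with the 30 replicate 1 peaks gathered 377 bases upstream in the median and the 61 of replicate 2 more spread.

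Most overlaps between the WT replicates lay at runs of A. Of the replicate 1 peaks, 1915 (2.45%) overlapped a replicate 2 peak and 8105 (10.4%, 10.2 to 10.6) lay within 10 kb of one, against 7.25% of genome positions, and from the other side 1920 (17.2%) and 4241 (38.1%) of the replicate 2 peaks, against 23.3% of positions within 10 kb. A run of 20 A or T lay in 7532 peaks of replicate 1 (9.70%), 3480 of replicate 2 (32.6%, 31.7 to 33.5) and 3 of *Snord116del* (0.236%, 0.0487 to 0.688), and 0.374% of genome windows as wide as a replicate 1 peak hold one. Among the 1869 placed replicate 1 peaks that overlapped a replicate 2 peak, 1602 (85.7%, 84.0 to 87.3) held such a run. Of the replicate 1 peaks with a run, 21.3% overlapped replicate 2, and of the 70087 without one, 267 did (0.381%). Of these 267, 79 (29.6%) lay in the Prader-Willi window, whereas 0 of the 1602 did, and 16 overlapped a *Snord116del* peak. The WT NSC list, made with other oligos, held the run in 152 peaks (4.50%).

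The 5 peaks with the highest fold in replicate 1 that overlapped replicate 2 and had no *Snord116del* peak within 10 kb included this kind and exons of abundant messages. The highest, at chr10:80644605-80645252, lay in an exon of *Eef2* (fold 513), and chr9:78327646-78327953 in an exon of *Eef1a1* (431), both translation elongation factor genes. The T run printed above had a fold of 441, as had chr8:3754424-3754752, outside genes and 5.60 kb from *Cd209a*. The fifth, chr15:90594648-90595153, lay in an exon of *Gm8759* (410), and its middle 32 bases occur 12 times in the genome.

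Exons set WT replicate 1 apart from both other lists. Peak middles lay in exons for 72.0% of replicate 1 (71.7 to 72.3), 2.37% of replicate 2 (2.09 to 2.68) and 12.4% of *Snord116del* (10.7 to 14.4), where exons make up 3.40% of genome bases. In replicate 1, 39.0% lay in coding sequence, against 0.591% in replicate 2 and 8.03% in *Snord116del*. Replicate 2 was close to the genome, with 35.3% in introns and 62.3% outside genes, against 37.9% and 58.7% of genome bases. Of the 1869 replicate 1 peaks that overlapped replicate 2, 5.19% lay in exons.

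The peaks of replicate 1 ended at exon edges. At 45258 edges between an exon of at least 300 bases and an intron of at least 1 kb, a replicate 1 peak covered 11.4% of the positions 25 bases inside the exon and 1.92% of those 25 bases into the intron, and 0.557% at 100 bases into it. Replicate 2 peaks covered 0.0309% and 0.0619% of the positions 25 bases inside and outside, and *Snord116del* peaks 0.0773% and 0.0685%, without such a step.

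Replicate 1 also tracked the level of the RNA. Of 2904 protein-coding genes under 0.1 FPKM (fragments scaled to transcript length and to library depth) in WT cortex at 6 h after lights on, 18.0% had a replicate 1 peak within 2 kb, and the share was 89.8% at 1 to 3 FPKM and 99.6% at 10 to 30. Over the same steps the shares were 10.3%, 20.0% and 11.9% in replicate 2 and 1.17%, 3.12% and 2.58% in *Snord116del*. Gene length moved with the level, being longest at 1 to 3 FPKM, with medians of 11.7 kb under 0.1 FPKM and 7.47 kb at 30 FPKM or more. These levels are the authors' values for a group of other mice and for cortex, not for the hemispheres used for ChIRP, and have no spread between mice.

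**Figure D5:**
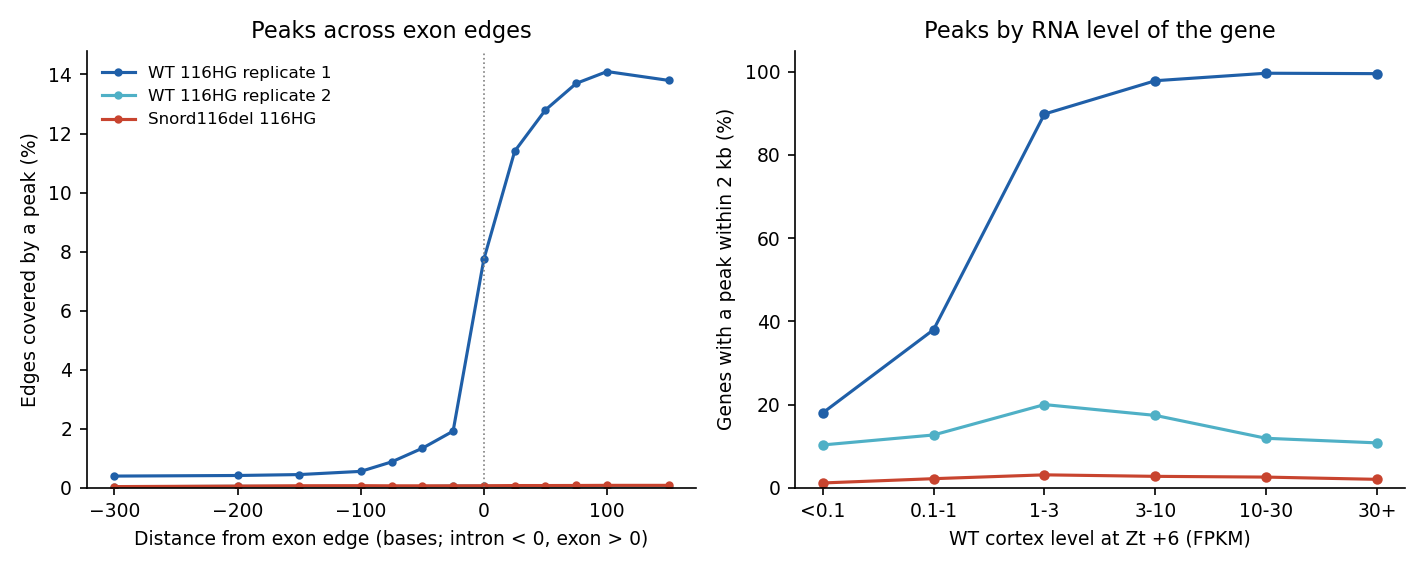
Left, percent of 45258 exon edges (y axis) covered by a peak at each distance in bases from the edge (x axis, intron below 0), with a step at the edge in WT replicate 1 from 1.92% to 11.4% between 25 bases outside and 25 inside. Right, percent of protein-coding genes with a peak within 2 kb (y axis) by their FPKM in WT cortex (x axis, 6 classes), which reaches 99.6% in WT replicate 1 and stays at 20.0% or less in replicate 2 and at 3.12% or less in *Snord116del*.

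Among all 22367 protein-coding genes, 13040 (58.3%) had a replicate 1 peak in them or within 2 kb, 3080 (13.8%) a replicate 2 peak and 504 (2.25%) a *Snord116del* peak. Both WT lists and not *Snord116del* marked 2274 (10.2%), and all 3 lists 147 (0.657%). Without peaks that hold an A run the count for both WT lists and not *Snord116del* was 1279. Another 96 genes had a *Snord116del* peak and no WT peak, and 11.6% of those in the RNA table reached a mean of 1 FPKM, against 76.0% of the genes with a replicate 1 peak and 49.2% of all genes. Gene length moved with these groups, with a median of 70.0 kb for the 2274, 319 kb for the 147, 18.3 kb for the 96 and 15.4 kb for all genes, and its part in the counts was not tested.

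The genes with the most peaks in each list spanned from 22.9 kb (*Gm10486*) to 4435 kb (*Gm20388*). In replicate 1 they were *Gm20388*, a gene model that spans 4435 kb of chromosome 8 and takes in other genes (249 peaks), the growth factor receptor gene *Fgfr2* (131), whose model spans 3009 kb, and *Syne1* (116), *Kalrn* (87) and *Dst* (85), which code for very large proteins of the nuclear envelope and cytoskeleton or for a synaptic exchange factor. The last 3 had 1, 0 and 2 replicate 2 peaks and no *Snord116del* peak. In replicate 2 they were *Gm2864* (36) on the X chromosome, *Gm20388* (32), *C130026I21Rik* (18), *Sfi1* (15) and *Gm10486* (14), and apart from *Gm20388* none had a *Snord116del* peak. The X chromosome held 13.5% of replicate 2 peaks (12.9 to 14.2), 3.83% of replicate 1 and 6.69% of *Snord116del*, against 6.33% of the genome. In *Snord116del*, *Gm20388* had 35 peaks, and *Tshr*, the receptor for thyroid-stimulating hormone, *Fhit*, *Gpc5* and *Rsph3a* had 3 each.

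Of the genes that the study names, *Mtor*, a kinase that couples growth to nutrients, had 15 replicate 1 peaks, 1 replicate 2 peak and no *Snord116del* peak. *Crebbp*, an acetyltransferase gene, had 36, 1 and 0, the imprinted receptor gene *Igf2r* had 7, 3 and 0, and *Ccdc12* had 4, 1 and 0. Beside these counts stand those for genes in general, of which 97.8% at 3 to 10 FPKM and 58.3% in all had a replicate 1 peak, 13.8% a replicate 2 peak and 2.25% a *Snord116del* peak. The study picked these genes with the WT lists in hand, so a peak in both is no separate result.

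The 14 gene lists held 198 genes of the annotation, of which 183 had a replicate 1 peak, 58 a replicate 2 peak and 8 a *Snord116del* peak. At the RNA levels of the clock, mTOR, methyltransferase and acetylation lists, with medians of 2.76 to 3.14 FPKM, 89.8% to 97.8% of all genes had a replicate 1 peak, 17.4% to 20.0% a replicate 2 peak and 2.76% to 3.12% a *Snord116del* peak, and the counts of these lists, which follow, are to be read against those shares. All 20 core clock genes had a replicate 1 peak, 6 a replicate 2 peak (*Arntl*, *Rora*, *Rorb*, *Tef*, *Hlf* and *Csnk1e*) and 1, *Bhlhe41*, a *Snord116del* peak. *Clock*, the partner of *Arntl* in activating clock genes, had 20, 0 and 0 peaks in the 3 lists, and the repressors *Per2* and *Cry1* had 7, 0 and 0 and 1, 0 and 0. Of 21 genes of mTOR and insulin signalling, 20 had a replicate 1 peak, 6 a replicate 2 peak and 0 a *Snord116del* peak, with *Insr*, the insulin receptor gene, at 14, 2 and 0. Subunits of the methyltransferases of histone H3 lysine 4 had 11, 2 and 0 of 12, and *Rbbp5*, a core subunit, had 5 replicate 1 peaks and none in the other lists. Acetyltransferases and deacetylases had 18, 4 and 0 of 18.

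Replicate 2 peaks were commonest in 3 lists of long genes. They lay at 10 of 17 glutamate and GABA receptor genes (58.8%), 9 of 14 genes of synaptic adhesion and scaffolds (64.3%) and 8 of 13 genes of potassium and calcium channels (61.5%), against 13.8% of all genes, and the median lengths of these lists were 378, 113 and 333 kb. *Snord116del* had peaks at 4, 2 and 1 of them, against 2.25% of all genes, and the part of gene length was not tested. These genes were *Gria3*, *Gria4*, *Grm7* and *Gabrb1*, then *Nrxn3* and *Dlgap1*, and the calcium channel subunit gene *Cacna2d1* with 2 peaks. The presynaptic, ribosomal, glycolysis and myelin lists had median levels of at least 28.3 FPKM. Of all genes at 10 FPKM or more, 99.5% to 99.6% had a replicate 1 peak, 10.8% to 11.9% a replicate 2 peak and 2.04% to 2.58% a *Snord116del* peak. Of the 16 genes of presynaptic release, 16 had a replicate 1 peak, 3 (18.8%) a replicate 2 peak and 0 a *Snord116del* peak. All 16 ribosomal protein genes had a replicate 1 peak and 1, *Rps3*, a replicate 2 peak, of 14 glycolysis genes 14 and 2, and of 8 myelin genes 8 and 0, with no *Snord116del* peak in these lists. Of 8 liver genes, replicate 1 had peaks at 1, *Ttr*, and the other lists at 0. *Ttr* stood at 199.8 FPKM in the WT cortex samples at 6 h, and which cells gave it was not tested. The Prader-Willi and Angelman domain had 6, 4 and 0 of 10 genes, and imprinted genes elsewhere 10, 3 and 0 of 12. Over all genes the shares were 58.3%, 13.8% and 2.25%.

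The RNA table carried the defining markers of brain. In WT cortex at 6 h the 5 neuronal markers ranged from 16.7 (*Tubb3*) to 481 FPKM (*Snap25*), the 3 oligodendrocyte markers from 12.2 to 314, and the liver genes *Alb* and *Apoa2* stood at 0.0355 and 0.366. Where the mean over the groups reached 1 FPKM, the median level in WT at 6 h was 3.46 FPKM for genes with a replicate 1 peak, 2.68 with a replicate 2 peak and 2.80 with a *Snord116del* peak, and 3.20 over all genes, and in *Snord116del* at 6 h it was 6.22, 5.81 and 5.92, and 5.72 over all.

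The word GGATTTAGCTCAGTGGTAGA, the transfer-RNA-like start shared by the BC1 RNA of rodent neurons and the ID repeats derived from it, was taken from the frequent words of WT replicate 1 and lay in 141 of its peaks (0.182%), against 0.00173% of windows. It lay in 0 peaks of the other lists, and for *Snord116del* the interval of that 0 reaches 0.290%, so a share like that of replicate 1 was not detectable there. The dinucleotide repeat ACACACACACACACACACAC was in 2.52% of replicate 2 peaks (2.23 to 2.84), against 0.959% of windows of that list's width, and in 2.05% of *Snord116del* peaks (1.34 to 2.98), against 3.36% of windows of the width of these.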

How the data were processed

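ChIRP-seq peak lists of 3 libraries made with *116HG* oligos, 2 of WT and 1 of *Snord116del* brain, were analysed, with 2 NSC lists beside them. By the submitters' processing notes the authors aligned reads with Bowtie2 2.0.0 to mm9, called peaks with MACS 1.4.2 in each library against WT input, and kept peaks above a fold of 20 with a false discovery rate below 5%. The deposited fold is a ratio to WT input, absent from replicate 2 and scaled within each library. The authors deposited 1 FPKM value per group and gene (TopHat2 2.0.5, Cuffdiff 2.0.2); the table's log2 fold changes and p-values and q-values are the authors' own comparison and were not used. Depth is not in the files, so counts of peaks alone set the precision. The methods of the study give the *Snord116del* library more aligned reads than either WT library, and WT replicate 2 the smallest aligned share. By the same counts, the aligned share was larger in both *Snord116del* libraries than in the WT libraries made with *116HG* or NSC oligos.

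Peaks were compared with the NCBIM37 genome (the assembly of mm9) and GENCODE vM1, which hold 77619, 10664 and 1271 of the peaks. Near meant a gap of up to 10 kb, a gene took peaks within 2 kb, and places were set by the middle base. The reference is not soft-masked, so copies of the middle 32 bases were counted in place of the planned masked share. Words were the 6 words of 20 bases that covered most peaks of each list in turn, and 28S matches came from blastn 2.17.0. Names came from a rule on fold, peak count and fixed lists: the 10 highest *Snord116del* peaks, places in all 3 lists, the 5 highest WT peaks away from *Snord116del*, the 5 genes with most peaks per list, 14 gene lists and the genes the study names. The members and lists were chosen with earlier results of these data known. Interval functions were tested on simulated data. Scripts used scipy 1.17.1, numba 0.67.0, pandas 2.3.3 and numpy 2.4.6 under Python 3.11.15. Alternatives covered the gap, merging, the fold, chromosomes, the placement rule, each WT replicate and the FPKM filter.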

Additional observations from a re-analysis of the deposited data

Results flagged for a closer look

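The words labelled LINE-1 type stood out in a list outside the comparison. In the *Snord116del* library made with NSC oligos, 40.2% of the placed peaks held any of the 5 words, against 0.148% in the WT library made with the same oligos, and the most frequent word was in 24.3% against 0.0888%. With these values both *Snord116del* libraries differ from all 3 WT libraries, whichever oligos were used. By the study's read counts, both *Snord116del* libraries also had a larger aligned share of reads than these WT libraries. Genotype, animal and library preparation cannot be told apart in these lists, since each *Snord116del* library stands alone.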

How the results depend on the processing

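Of 108 alternative values for 17 results, 47 stayed close to the value given and 61 moved, and no direction is tested in them. In the following, the shares near another list are those of *Snord116del* near WT replicate 1, replicate 1 near *Snord116del*, *Snord116del* near replicate 2 and replicate 2 near *Snord116del*, in that order. They were 6.80%, 0.137%, 3.44% and 0.395% at direct overlap, 13.6%, 0.442%, 7.50% and 0.915% at a gap of 2 kb, and 63.0%, 5.14%, 37.3% and 5.17% at 50 kb. With neighbouring peaks merged, replicate 1 near *Snord116del* was 1.51%, *Snord116del* near replicate 2 14.2%, and the Prader-Willi window held 0.0421% of replicate 1 and 0.0864% of replicate 2. At a fold of at least 40, which leaves 34 *Snord116del* peaks, the last 3 shares were 0.0232%, 35.3% and 0.126%, exons held 73.1% of replicate 1 and 2.94% of *Snord116del*, 9 genes had a *Snord116del* peak (median 8.13 FPKM), and the window held 0 of them. With replicate 1 cut to its highest folds, as many as *Snord116del* peaks, 1.48% of *Snord116del* lay near it, 86.9% of it in exons, and it marked 1000 genes (median 25.3 FPKM), of which 139 were in both WT lists and not in *Snord116del*. On autosomes, 2.17% of replicate 2 lay near *Snord116del* and 3.12% in the window. With any overlap, exons held 73.4%, 3.41% and 17.6% of replicate 1, replicate 2 and *Snord116del*. Genes of both WT lists and not *Snord116del* numbered 3459 within 10 kb, and 2914 to 12651 when either WT replicate was left out, the higher without replicate 2. With no filter, the median FPKM was 2.22, 1.21 and 1.28 for the 3 lists.

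The following were chosen after seeing the data. Keeping peaks whose middle 32 bases are unique (357 of *Snord116del*) gave 45.4%, 1.02%, 7.00% and 0.906% near the other lists, 80.5%, 3.33% and 35.9% in exons, and 0.176%, 0.550% and 0% in the window. Without peaks with the most frequent *Snord116del* word, 37.4% of *Snord116del* lay near replicate 1 and 19.2% in exons, 1.20% of replicate 1 and 1.42% of replicate 2 near *Snord116del*. Without peaks with an A run, the first 3 shares were 21.2%, 1.25% and 12.4%, exons held 79.1% of replicate 1 and 3.02% of replicate 2, the window 3.76% of replicate 2, and 1984 genes had a replicate 2 peak and 1279 a peak in both WT lists and none in *Snord116del*. The share of peaks in exons was highest in replicate 1 in each alternative that gave it. In the window, the *Snord116del* share rests on 1 peak or 0. After merging it (0.0862%) was above that of replicate 1 and close to that of replicate 2, an order that 1 region cannot settle. No paired analysis was possible because the WT replicate numbers have no partner in the single *Snord116del* library.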
